A study of Mus musculus with 37 samples.

Results

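Vasoactive intestinal peptide (VIP) was compared with no peptide in Lgr5-EGFP+ progenitor cells that had not been irradiated. The samples are the 8 non-irradiated ones of the irradiation experiment, out of 37 in the whole series, and they were chosen by their labels: 4 VIP-treated samples (100 nM) and 4 untreated control samples. Each of 4 mice gave 1 organoid line that was split over both groups, so that every VIP-treated sample has a control sample of the same mouse. The organoids were grown from the jejunum of adult Lgr5-EGFP-IRES-CreERT2 mice, in which EGFP and CreERT2 are expressed from the Lgr5 locus. Both groups carried the reporter and received the same growth medium with EGF, Noggin and R-spondin-1. Live EGFP+ cells were then sorted and their poly(A) RNA was counted as unique molecular identifiers (UMIs) at the 3′ end. The scheme of the irradiation experiment gives 48 h of VIP. The duration is not stated separately for non-irradiated organoids and was taken to be the same, so that 48 h stands for this assumption throughout. The other 8 samples of that experiment had the same 2 treatments after 6 Gy of X-rays. This knock-in is known to be expressed in a mosaic pattern, and an organoid culture contains epithelium only, without nerves, immune cells or mesenchyme.

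VIP is a neuropeptide released by enteric neurons, and in the gut epithelium it is best known for stimulating the secretion of chloride and water. It binds the receptors VPAC1 (Vipr1) and VPAC2 (Vipr2), which couple to the stimulatory G protein and raise cyclic AMP. Lgr5, a receptor for R-spondins, marks the dividing stem cells at the base of the crypt, from which absorptive enterocytes and secretory goblet, Paneth, enteroendocrine and tuft cells arise.

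The libraries held 1525664 to 1798669 UMIs in the control samples and 1331494 to 1641900 in the VIP-treated samples, and VIP was lower than control in 3 of 4 mice (mean difference −0.16 on the log2 scale, SD 0.18, n = 4 pairs, exact sign-flip permutation test, two-sided, p = 0.25, where 0.125 is the smallest p that 4 pairs allow). Between 16278 and 17372 genes were detected per sample, and mitochondrially encoded transcripts made up 4.90% to 5.58% of UMIs in control and 5.21% to 5.59% in VIP-treated cells. CPM here is a gene's UMIs scaled to 1000000 UMIs of the tested genes, with the library size adjusted by TMM factors. Epithelial identity genes (15 of 15 tested, none past the threshold) summed to 14615 to 15527 CPM in control and 14391 to 14895 in VIP-treated cells. Leukocyte markers summed to 5.99 to 15.7 and 4.52 to 7.79 CPM, with no marker high enough to be tested, and mesenchymal, endothelial, muscle and neural markers summed to 23.2 to 31.4 and 13.97 to 41.5 CPM. The EGFP+ gate did not give stem cell transcripts alone, since markers of all differentiated lineages were detected in every sample.

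Few genes passed the threshold with VIP in these cells, although 1237 were at an unadjusted p under 0.05. Of 9976 genes tested, 74 differed at an adjusted p of 0.05 or less (0.742% of those tested; edgeR's quasi-likelihood test with the mouse as a block and Benjamini-Hochberg adjustment): 48 rose (0.481%) and 26 fell (0.261%). By p-value the rises were led by the stem cell marker Olfm4, the tight junction gene Cldn2 and the glycolytic gene Eno1, and by size by the lactate transporter gene Slc16a3. By p-value the falls were led by the plasminogen receptor gene Plgrkt, the alcohol dehydrogenase gene Adh1 and the carboxylesterase genes Ces2a and Ces2e, and by size by the cytochrome P450 gene Cyp2c66 and the Fc receptor gene Fcgrt. Changes were of modest size, with a median log2 fold change of 0.55 among the genes that rose and −0.59 among those that fell. Only 3 rises and 7 falls were larger than 2-fold.

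The response went the same way in 4 of 4 mice for 73 of the 74 genes, which was the case for 20.7% of all genes tested (10.2% higher and 10.5% lower), the exception being Creb3l1. The CPM values of the 4 VIP-treated samples lay all above or all below those of the 4 control samples for 65 of the 74 genes, against 6.66% of all genes tested. Both shares describe genes already chosen for their difference. In a principal component analysis of the 8 samples, the first component (25.1% of the variance) mainly set mouse 1 apart. Mouse 1 was at −15.98 in control and −4.84 with VIP, and the other mice at −1.38 to 1.21 and 5.13 to 8.04. Within each mouse VIP lay above control on this component. The second (18.1%) mainly separated VIP from control. Every called gene kept its sign under each of 12 alternative settings. However, only 16 of the 74 passed in every alternative that gave them an adjusted p: Olfm4, Cldn2, Eno1, Pkm, Pfkl, Tmsb10, Cbs, Aqp1, Hdac1, Stk39, Ceacam1, Plgrkt, Adh1, Ces2a, Ces2e and Cdkn1a. Without mouse 1, 2, 3 or 4 the number of called genes was 40, 40, 42 and 32, and without the mouse block it was 34. Fitted alone, the 8 samples gave 184 called genes of 9147 (2.01%), with 104 higher (1.14%) and 80 lower (0.875%), and all 74 genes were among them.

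**Figure D1:**
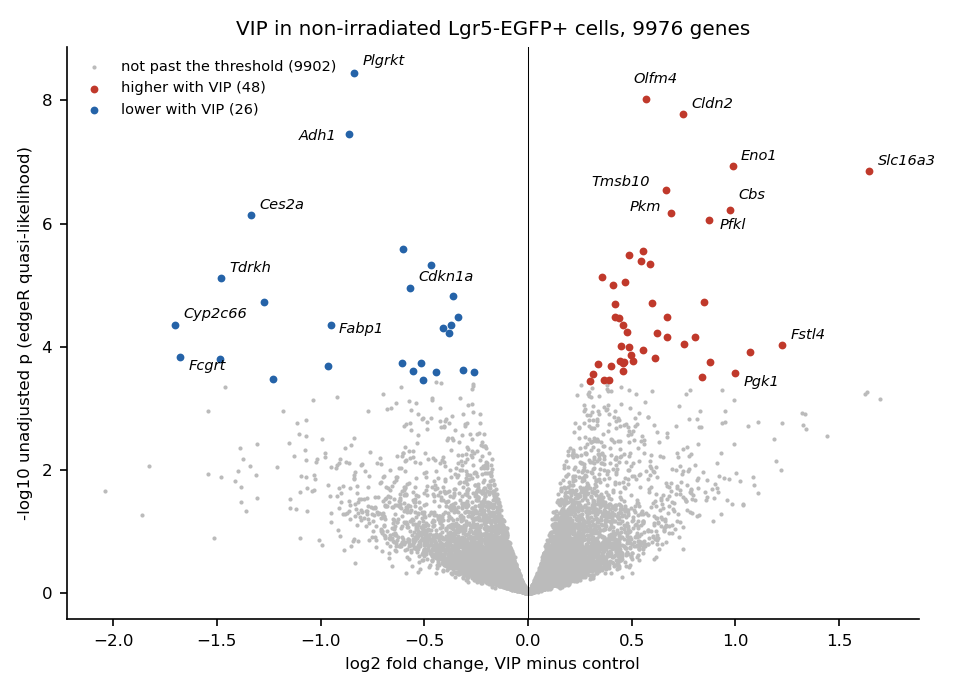
Log2 fold change of VIP-treated over control non-irradiated Lgr5-EGFP+ cells (x axis) against −log10 of the unadjusted p (y axis) for the 9976 genes tested. The 48 genes that rose and the 26 that fell are coloured and the leading ones named. Plgrkt, Olfm4, Cldn2 and Adh1 stand highest.

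Glycolysis turns glucose into pyruvate, which lactate dehydrogenase reduces to lactate for export. Of 28 tested genes in a list of glycolysis and hypoxia response genes, 10 rose and none fell (35.7%, against 0.742% of all genes tested). A further 7 were higher at an unadjusted p under 0.05, so that 17 of 28 were, against 6.67% of all genes, 25 of the 28 lay above 0 (49.4% of all genes), and the median log2 fold change of the list was 0.46, against −0.003 over all genes tested. The rises included these enzymes and the transporter of the pathway: the isomerase Gpi1, the phosphofructokinase Pfkl, the triose phosphate isomerase Tpi1, the phosphoglycerate kinase Pgk1, the enolase Eno1, the pyruvate kinase Pkm, the lactate dehydrogenase Ldha and the lactate transporter Slc16a3. The remaining 2 were Mif, a cytokine, and Bnip3l, a receptor that directs mitochondria to autophagy.

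The largest rise of all called genes was that of Slc16a3 (chr11:120948480-120960868, GRCm38), which encodes the monocarboxylate transporter MCT4. Control cells of mice 1 to 4 held 20.1, 10.6, 8.01 and 5.32 CPM of Slc16a3, and VIP-treated cells held 58.1, 48.2, 22.7 and 11.5 CPM. VIP was above control within each mouse, although the groups overlapped because mouse 4 was low and mouse 1 high in both. The fold change was 3.13 (log2 1.65, SE 0.23, adjusted p = 0.000234), and it was the mouse block that carried the call, since without it the adjusted p was 0.0745.

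Eno1 (chr4:150236721-150248879) measured 139, 136, 118 and 114 CPM in control and 401, 248, 202 and 180.4 CPM in VIP-treated cells. The groups did not overlap, and mouse 1 had the highest value under VIP (log2 fold change 0.99, SE 0.13, adjusted p = 0.000231). Pfkl measured 114, 101, 105 and 93.8 CPM in control and 272, 200.2, 151 and 148 CPM with VIP (log2 fold change 0.87, SE 0.13, adjusted p = 0.000802). For Pkm the control values were 485, 509, 495 and 480.5 CPM and the VIP values 1041, 828, 687 and 644 CPM (log2 fold change 0.69, SE 0.10, adjusted p = 0.000721). In each of these genes all VIP-treated samples were above all control samples, and mouse 1 stood out under VIP while the control values were close together. Ldha, the most abundant of the 10, had control values of 1744, 1719, 1626 and 1505 CPM and VIP values of 2895, 2380.2, 1890.1 and 1767 CPM (log2 fold change 0.42, SE 0.08, adjusted p = 0.00752).

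Pgk1 (chrX:106187100-106203699) was at 20.7, 25.7, 18.9 and 28.6 CPM in control and 71.9, 51.2, 33.1 and 34.6 CPM in VIP-treated cells (log2 fold change 0.999, SE 0.24, adjusted p = 0.0402). Its call was lost without mouse 1 (adjusted p = 0.238), 2 (0.121) or 3 (0.128). Bnip3l showed 15.7, 18.8, 14.3 and 11.3 CPM against 31.4, 27.9, 27.9 and 20.6 CPM (log2 fold change 0.84, SE 0.20, adjusted p = 0.0449). Tpi1 (log2 fold change 0.41, SE 0.07, adjusted p = 0.00478), Gpi1 (0.48, SE 0.10, adjusted p = 0.0154) and Mif (0.44, SE 0.10, adjusted p = 0.032) completed the group. Members without a call included Pgam1 (1.33, adjusted p = 0.084), the Bnip3l relative Bnip3 (1.06, adjusted p = 0.0972), the hexokinase Hk2 (0.48, adjusted p = 0.117) and the glucose transporter Slc2a1 (0.25). When the 8 samples were fitted alone, 11 of 25 members were called higher (1.14% of all genes were), the 10 above and Bnip3. Among the hypoxia response genes of the list outside glycolysis, the oxygen-sensing hydroxylase genes Egln3 (0.66) and Egln1 (0.28), Ankrd37 (0.58), Ero1l (0.33) and the pyruvate dehydrogenase kinase gene Pdk1 (0.26) lay above 0 without passing. The 3 members below 0 were the hypoxia factor gene Hif1a (−0.13) and its known targets Vegfa (−0.01) and Ddit4 (−0.03). Glycolytic genes have near-identical processed copies elsewhere in the genome, so that their counts are uncertain, and Gapdh was listed at a mean of only 4.70 CPM in control and 5.88 CPM in VIP-treated cells.

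**Figure D2:**
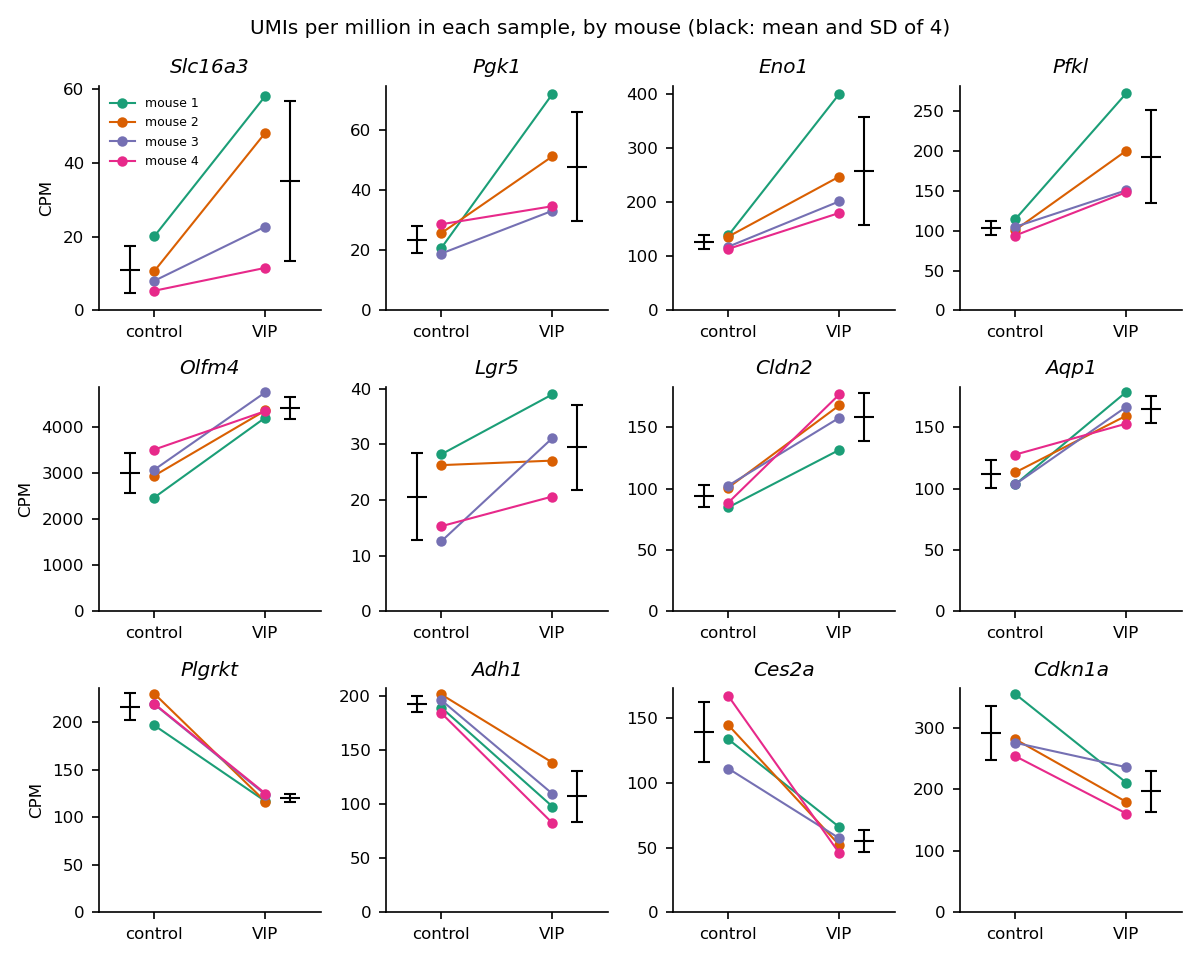
CPM (y axes) of single genes in control and VIP-treated non-irradiated Lgr5-EGFP+ cells, with a line joining the 2 samples of each mouse and black bars for the mean and SD (n = 4). Within each mouse Slc16a3, Eno1, Olfm4 and Cldn2 were higher and Plgrkt, Adh1, Ces2a and Cdkn1a lower with VIP.

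The size of the glycolytic response differed between the mice. Summed over the list, control samples of mice 1 to 4 held 4850.5, 4700.1, 4478.1 and 4304.5 CPM, whereas VIP-treated samples held 8641.6, 6671.5, 5527.4 and 5124.1 CPM. Every VIP-treated sample lay above every control sample, and mouse 1 was the highest and mouse 4 the lowest in both groups. The median log2 difference over the 28 genes was 0.72, 0.57, 0.29 and 0.30 in mice 1 to 4, with 23, 25, 21 and 25 genes higher. Mouse 1 had the largest response for 9 of the 10 called genes and mouse 2 for the other one, but over all 28 genes mouse 1 had the largest response for 15 and the smallest for 6. The VIP-treated library of mouse 1 had the fewest total UMIs and that of mouse 4 the most (1331494, 1340195, 1563884 and 1641900 in mice 1 to 4), and the part of depth in these differences was not tested. Without mouse 1, 2, 3 or 4 in turn, 5, 5, 6 and 9 genes of the list passed, and without the mouse block 4 did.

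**Figure D3:**
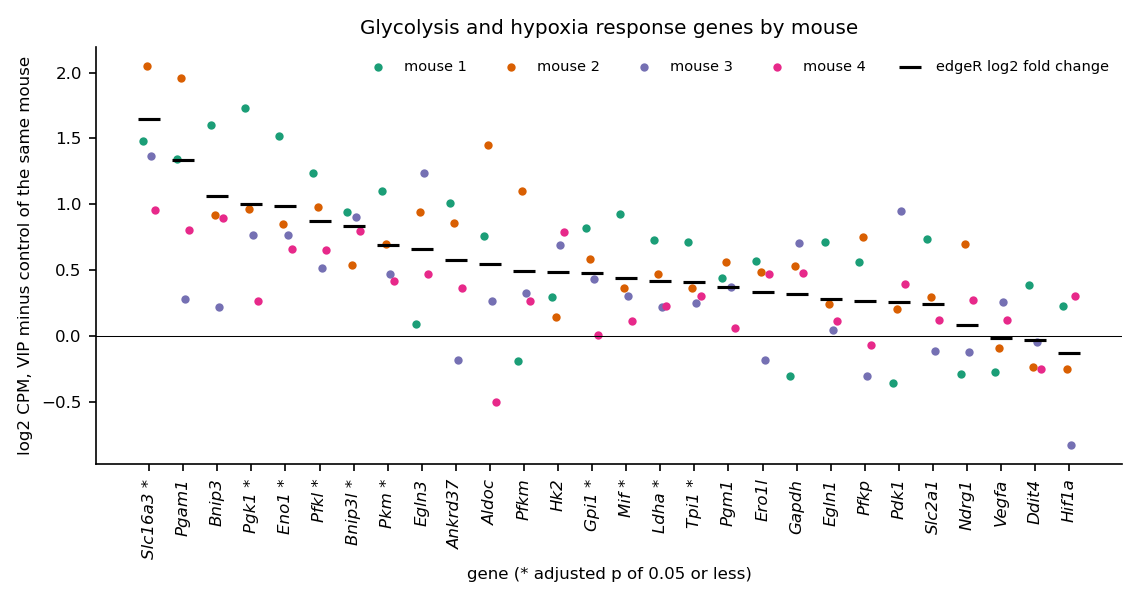
Log2 difference of VIP minus control CPM within each mouse (y axis, coloured points) for the 28 tested glycolysis and hypoxia response genes (x axis, with an asterisk on those past the threshold). The medians were 0.72, 0.57, 0.29 and 0.30 in mice 1 to 4.

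Since these genes rose together, their promoters were read from RefSeq (GRCm38.p6) as windows of 300 bases, with 250 before and 50 after a transcription start. The windows were searched on both strands for ACGTG, the core that hypoxia-inducible factors and several bHLH factors can bind, and which is contained in the E-box CACGTG. Windows of 4 genes that rose are shown with this core in capitals, because 3 of them hold it at 2 or 3 places and Eno1 does not hold it. The windows were chr11:120948817-120949116 for Slc16a3, chrX:106186850-106187149 for Pgk1, chr7:46845554-46845853 for Ldha and chr4:150236458-150236757 for Eno1, all on the plus strand:
Slc16a3: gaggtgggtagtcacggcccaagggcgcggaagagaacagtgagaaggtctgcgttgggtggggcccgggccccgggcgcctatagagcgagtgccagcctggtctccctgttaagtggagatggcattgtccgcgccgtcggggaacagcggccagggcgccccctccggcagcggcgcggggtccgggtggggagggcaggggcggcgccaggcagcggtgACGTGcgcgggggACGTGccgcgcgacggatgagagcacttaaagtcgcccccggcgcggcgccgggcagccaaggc
Pgk1: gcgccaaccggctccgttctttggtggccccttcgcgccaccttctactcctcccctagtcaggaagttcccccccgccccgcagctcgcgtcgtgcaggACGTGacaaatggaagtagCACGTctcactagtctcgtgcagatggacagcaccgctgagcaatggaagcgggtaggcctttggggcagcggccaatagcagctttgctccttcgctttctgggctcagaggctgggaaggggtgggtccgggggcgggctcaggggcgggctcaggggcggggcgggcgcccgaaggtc
Ldha: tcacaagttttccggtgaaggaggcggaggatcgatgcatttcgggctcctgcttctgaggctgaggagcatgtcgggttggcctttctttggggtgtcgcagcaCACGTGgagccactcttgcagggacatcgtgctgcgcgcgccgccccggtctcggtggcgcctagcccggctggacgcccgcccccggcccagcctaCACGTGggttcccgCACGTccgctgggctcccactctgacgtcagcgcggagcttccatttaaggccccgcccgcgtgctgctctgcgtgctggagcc
Eno1: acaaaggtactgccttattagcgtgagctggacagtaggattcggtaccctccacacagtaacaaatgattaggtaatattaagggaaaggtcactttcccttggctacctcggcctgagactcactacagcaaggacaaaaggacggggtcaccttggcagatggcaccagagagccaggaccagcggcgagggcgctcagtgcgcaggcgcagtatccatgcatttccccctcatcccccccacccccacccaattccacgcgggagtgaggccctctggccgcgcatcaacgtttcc
The core was present in 5 of the 9 called glycolysis and hypoxia response genes with a window, namely Slc16a3, Pgk1, Ldha, Mif and Pkm. A gene counted if any of its windows held the core, and Ldha and Pkm did not hold it in every window. These 9 genes had 13 windows and the tested genes 9830, so that windows per gene differed. For comparison, it was present in 21.8% of all 27025 genes with a window and in 30.4% of the 7708 tested ones, in 14 of 36 genes that rose (38.9%) and in 5 of 20 that fell (25%). The cyclic AMP response element TGACGTCA, bound by CREB, was found in 3 of the 36 genes that rose (8.33%), against 3.92% of the tested genes, and Ldha and Mif were among them. Such matches describe the sequence and do not show binding.

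Among stem cell genes, Olfm4 was the one that rose. Olfm4 (chr14:79984081-80023139), a secreted glycoprotein that marks crypt base stem cells, measured 2468, 2941, 3070.5 and 3507 CPM in control and 4202, 4355, 4749 and 4341 CPM in VIP-treated cells. The lowest VIP value exceeded the highest control value, and the fold change was 1.48 (log2 0.57, SE 0.07, adjusted p = 4.82e-05). Lgr5 itself (chr10:115450311-115587780), on whose reporter the cells were sorted, was at 28.2, 26.3, 12.6 and 15.3 CPM against 39.0, 27.1, 31.2 and 20.6 CPM. It was higher with VIP in 4 of 4 mice, but the groups overlapped and it did not pass (log2 fold change 0.54, SE 0.20, adjusted p = 0.233). Smoc2, a matrix protein of the crypt base, was close to the threshold (0.29, adjusted p = 0.0596), followed by the sterol acyltransferase Soat1 (0.34, adjusted p = 0.132) and the transcription factor Sox9 (0.22, adjusted p = 0.16). Both Olfm4 and Smoc2 were called higher with the 8 samples alone, 2 of 22 stem cell markers, against 1.14% of all genes. Of the 22 stem cell markers tested, 1 rose (4.55%, against 0.481% of all genes) and none fell. Above 0 lay 16 of them (49.4% of all genes), and the median was 0.13. The summed level of the list was 5117 to 6188 CPM in control and 6950 to 7632 CPM in VIP-treated cells, without overlap. Olfm4 alone made up 2468 to 3507 and 4202 to 4749 CPM of it, and without Olfm4 the groups overlapped.

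Proliferation genes gave 1 call. Mcm3, a subunit of the replicative helicase, rose from 63.4, 66.3, 64.7 and 55.2 CPM to 84.9, 91.8, 77.2 and 99.0 CPM, without overlap (log2 fold change 0.50, SE 0.11, adjusted p = 0.0283). It was the only one of 59 S phase genes to pass (1.69%, against 0.481% of all genes). Above 0 lay 43 of them (49.4% of all genes), and the median was 0.13. At an unadjusted p under 0.05, 10 of the 59 were higher and none lower (6.67% and 5.73% of all genes). Mcm7, a partner of Mcm3, had a log2 fold change of 0.33 (adjusted p = 0.0927). None of 55 G2/M genes passed (38 above 0, against 49.4% of all genes, median 0.07). The chromatin protein Hmgb2 came closest (0.40, adjusted p = 0.0578). In the fit of the 8 samples alone, 2 of 59 S phase genes (Mcm3 and Mcm7) and 1 of 55 G2/M genes (Hmgb2) were called higher. Of all genes 1.14% were called higher there.

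Genes of the apical junction and of ion and water transport held some of the rises that passed in every alternative. Cldn2 (chrX:139800828-139811386), a claudin that forms a cation- and water-permeable pore in the tight junction, was at 84.7, 101, 102 and 88.5 CPM in control and 132, 168, 158 and 177 CPM in VIP-treated cells. The groups were clearly apart (fold change 1.68, log2 0.75, SE 0.09, adjusted p = 5.56e-05). The actin-binding tropomyosin Tpm4 rose less (log2 fold change 0.34, SE 0.08, adjusted p = 0.0322), and Actb, beta-actin, missed the threshold (0.23, adjusted p = 0.0605). In total 2 of 52 junction and actin genes rose (3.85%, against 0.481% of all genes) and none fell, with a median of 0.09. Above 0 lay 33 of the 52 (49.4% of all genes). At an unadjusted p under 0.05, 12 were higher and 1 lower (6.67% and 5.73% of all genes). The summed level was 11933 to 12738 CPM in control and 13203 to 13992 CPM in VIP-treated cells, without overlap. The fit of the 8 samples alone called 5 of 50 higher (1.14% of all genes): Cldn2, Tpm4, Actb, Cldn15 and Nectin2. Outside the list, Tmsb10, which binds actin monomers, went from 367, 328, 289.5 and 331 CPM to 697, 504, 445 and 454 CPM (log2 fold change 0.67, SE 0.10, adjusted p = 0.000411). The adhesion molecule Ceacam1 rose as well (0.55, SE 0.09, adjusted p = 0.00273).

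Aqp1, a water channel, was the 1 gene of 19 in a list of chloride secretion genes and guanylins that passed (5.26%, against 0.742% of all genes). It measured 104, 113, 104 and 128 CPM in control and 179, 159.6, 167 and 153 CPM with VIP (log2 fold change 0.55, SE 0.09, adjusted p = 0.00218). All VIP values were above all control values. Stk39, a kinase that activates sodium-potassium-chloride cotransport, rose too although it was not on the list (0.49, SE 0.08, adjusted p = 0.00232). The potassium channel Kcnq1 (0.39, adjusted p = 0.0963), the chloride-bicarbonate exchanger Slc26a3 (−0.68, adjusted p = 0.0808) and the guanylin gene Guca2a (−0.42, adjusted p = 0.0972) did not pass. Of 17 members tested with the 8 samples alone, Aqp1 was again called higher and 2 were called lower, Slc26a3 and Guca2a. Of all genes 1.14% were called higher in that fit and 0.875% lower.

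Of 25 cholesterol synthesis genes, Fdft1, squalene synthase, rose (log2 fold change 0.30, SE 0.07, adjusted p = 0.0492), which is 4% of the list against 0.481% of all genes. The median of the list was 0.22, 20 genes lay above 0 (49.4% of all genes), and 11 were higher at an unadjusted p under 0.05 (6.67% of all genes). The summed level was 3348 to 4079 CPM in control and 4451 to 4839 CPM in VIP-treated cells, without overlap. Fdps, which makes farnesyl pyrophosphate, was at 660.5, 1026, 960.2 and 1055 CPM against 1369.8, 1346, 1265 and 1279 CPM and just missed the threshold (0.52, adjusted p = 0.0596), as did Msmo1 (0.31, adjusted p = 0.0556). Both passed with the 8 samples alone.

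The remaining genes among the 10 largest rises belonged to no list. Cbs, which starts the conversion of homocysteine to cysteine, went from 39.5, 26.9, 32.0 and 29.3 CPM to 62.7, 61.7, 60.4 and 68.0 CPM (log2 fold change 0.98, SE 0.15, adjusted p = 0.000721). Its values were close together within each group and far apart between them. Fstl4, a follistatin-like gene (1.23, SE 0.26, adjusted p = 0.022), Kctd14 (1.07, SE 0.24, adjusted p = 0.0256), the histone gene H2ac8 (0.88, SE 0.20, adjusted p = 0.032) and the forkhead factor Foxq1 (0.85, SE 0.16, adjusted p = 0.00746) rose in 4 of 4 mice. Fstl4 and Kctd14 were low in control, at 3.76 to 14.9 and 7.51 to 15.7 CPM.

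The fall with the smallest p was that of Plgrkt (chr19:29348599-29367390), a membrane receptor for plasminogen. Control samples held 197, 230.3, 219 and 219.6 CPM and VIP-treated samples 117, 117, 124 and 125 CPM. The values within each group were nearly the same, and Plgrkt was 1.79-fold lower with VIP (log2 −0.84, SE 0.09, adjusted p = 3.59e-05). Adh1 (chr3:138260991-138290698), an alcohol dehydrogenase that also oxidises retinol, was at 189, 202, 196 and 184 CPM in control and 97.9, 138, 109.7 and 82.6 CPM with VIP (log2 fold change −0.86, SE 0.11, adjusted p = 8.85e-05). Ces2a (chr8:104734003-104741634), a carboxylesterase, had 134, 145, 111 and 167 CPM against 65.8, 51.9, 57.1 and 45.5 CPM (log2 fold change −1.33, SE 0.20, adjusted p = 0.000721). Another member of the same enzyme family, Ces2e, fell by less (−0.60, SE 0.10, adjusted p = 0.00213). None of these 4 genes had overlapping groups. Members of the Ces2 family are similar in sequence, and reads may be shared between them.

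Enterocytes absorb fatty acids with the help of fatty acid binding proteins. Fabp1 was at 244, 207, 131 and 118 CPM in control and 95.6, 87.3, 99.955 and 70.5 CPM in VIP-treated cells, so that all VIP values were below all control values (log2 fold change −0.95, SE 0.19, adjusted p = 0.0128). Fabp2 changed from 664, 714, 661 and 647 CPM to 437, 519, 584 and 477 CPM (log2 fold change −0.41, SE 0.08, adjusted p = 0.014). Together with Ces2a these were the 3 of 34 enterocyte markers that fell (8.82%, against 0.261% of all genes), and none rose. The median of the list was −0.30, with 28 genes below 0 and 11 lower at an unadjusted p under 0.05 (50.6% and 5.73% of all genes), among them the retinol binding protein Rbp2 (−1.07, adjusted p = 0.093). The summed level of the list was 4063 to 4654 CPM in control and 3275 to 3896 CPM with VIP, without overlap. In bulk RNA, fewer cells of a type and less RNA per cell cannot be told apart. Without mouse 1, 2, 3 or 4, the number of enterocyte markers that fell was 1, 1, 3 and 2, and Ces2a was among them each time.

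Other large falls were in genes of low level. The cytochrome P450 gene Cyp2c66 (chr19:39113898-39187072) was at 11.9, 17.5, 14.9 and 35.9 CPM in control and 6.88, 9.79, 2.6 and 5.47 CPM with VIP (log2 fold change −1.70, SE 0.34, adjusted p = 0.0128), and reads may be shared with related Cyp2c genes. Fcgrt, the neonatal Fc receptor that carries immunoglobulin G across epithelia, had 6.9, 11.9, 8.01 and 13.98 CPM against 4.59, 3.76, 2.6 and 1.82 CPM (−1.68, SE 0.37, adjusted p = 0.03). St3gal4, a sialyltransferase (−1.27, SE 0.24, adjusted p = 0.00746), Tdrkh, a factor of small RNA biogenesis (−1.48, SE 0.26, adjusted p = 0.00406), Cc2d2a, a protein of the ciliary base (−1.49, SE 0.33, adjusted p = 0.0312), and the mucin-like glycoprotein Dmbt1 (−0.96, SE 0.22, adjusted p = 0.0337) fell with no overlap between the groups. Arg2, the mitochondrial arginase, fell with overlapping groups (−1.23, SE 0.29, adjusted p = 0.0473).

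Targets of the p53 tumour suppressor, which halts the cell cycle or triggers cell death after damage, gave 3 falls and no rise among 38 genes (7.89%, against 0.261% of all genes for a fall). Cdkn1a, the cell cycle inhibitor p21, was at 354, 281, 275 and 254 CPM in control and 210.3, 179, 236 and 160.3 CPM in VIP-treated cells. The highest VIP value was below the lowest control value (log2 fold change −0.57, SE 0.10, adjusted p = 0.00497). Bbc3, the pro-apoptotic PUMA, had 50.2, 47.6, 64.1 and 49.9 CPM against 30.6, 39.1, 42.2 and 27.9 CPM (−0.61, SE 0.14, adjusted p = 0.032). Dcxr, a carbonyl reductase, fell as well (−0.50, SE 0.12, adjusted p = 0.0478). The list had a median of −0.16, with 31 genes below 0 and 10 lower at an unadjusted p under 0.05 (50.6% and 5.73% of all genes), and summed to 2118 to 2266 CPM in control and 1797 to 2097 CPM with VIP. Trp53 itself did not pass (0.17, adjusted p = 0.487). Cdkn1a passed in every alternative, whereas the number of p53 targets that fell was 1, 2, 1 and 1 without mouse 1, 2, 3 or 4 and 1 without the mouse block.

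The metallothioneins Mt1 (−0.26, SE 0.06, adjusted p = 0.0394) and Mt2 (−0.37, SE 0.07, adjusted p = 0.0128), small proteins that bind zinc and copper, were the 2 of 28 NRF2 and glutathione genes that fell (7.14%, against 0.261% of all genes). Their groups overlapped, and the median of the list was −0.03.

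Most markers of Paneth, enteroendocrine and tuft cells were lower with VIP without passing the test, whereas goblet markers were spread on both sides of 0. All 18 tested Paneth cell markers had a negative log2 fold change (median −0.44, against 50.6% of all genes below 0), 8 were lower at an unadjusted p under 0.05 (5.73% of all genes were) and none was past the threshold. Defa24, an antimicrobial defensin, was at 8389, 6816, 6598 and 6039 CPM in control and 4959.8, 5580.1, 5638 and 5086 CPM with VIP (−0.39, adjusted p = 0.13), and Lyz1, lysozyme, had a log2 fold change of −0.21 (adjusted p = 0.65). Reads of the closely related defensin genes can be split between them, so each count is uncertain and their common sign is not independent. Summed Paneth marker levels were 10959 to 16227 CPM in control and 9403 to 10624 CPM in VIP-treated cells, without overlap, but without Defa24 the groups overlapped. Fitted with the 8 samples alone, where 0.875% of all genes were called lower, 6 of 17 Paneth markers passed, Defa24 among them (adjusted p = 0.00552). The part of such markers in the falls above was not tested.

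Of 25 enteroendocrine markers 24 were below 0 (median −0.30, against 50.6% of all genes below 0) and none passed. Gip, the incretin of K cells, had 829, 681, 946 and 546 CPM against 387, 421, 604 and 373 CPM, and the groups overlapped (−0.77, adjusted p = 0.0809). The peptide hormone gene Pyy was at −0.80 (adjusted p = 0.191) and the transcription factor Neurod1 at −0.09 (adjusted p = 0.954). The median in mice 1 to 4 was −0.91, −0.41, 0.22 and −0.46, so that mouse 3 went against the others, with a summed level of 6284 CPM under VIP and 2906 to 3735 CPM in the other mice. With the 8 samples alone, where 0.875% of all genes were called lower, 2 of 23 enteroendocrine markers passed, both lower: Gip (adjusted p = 5.48e-06) and Pyy. For tuft cells 12 of 15 markers were below 0 (median −0.42, against 50.6% of all genes below 0). Adh1, described above, was the one that fell (6.67%, against 0.261% of all genes). The G protein regulator Rgs13 (−0.85, adjusted p = 0.144) and the tuft cell kinase Dclk1 (−0.34, adjusted p = 0.719) did not pass. Among 11 tuft markers tested with the 8 samples alone, 2 were called lower, Adh1 and Rgs13. Goblet markers had a median of 0.02. The secretory pathway factor Creb3l1 was the 1 of 23 that rose (4.35%, against 0.481% of all genes). Its rise (0.61, SE 0.14, adjusted p = 0.0302) was seen in 3 of 4 mice. The goblet peptide Tff3 was at 1782, 1206, 1293 and 1073 CPM against 1003, 1000.4, 1101 and 848 CPM (−0.42, adjusted p = 0.0511), and neither the mucin Muc2 (−0.19, adjusted p = 0.813) nor Clca1 (−0.29, adjusted p = 0.873) passed. With the 8 samples alone 4 of 21 goblet markers were called lower, Tff3 among them (adjusted p = 0.005), and Creb3l1 again higher.

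**Figure D4:**
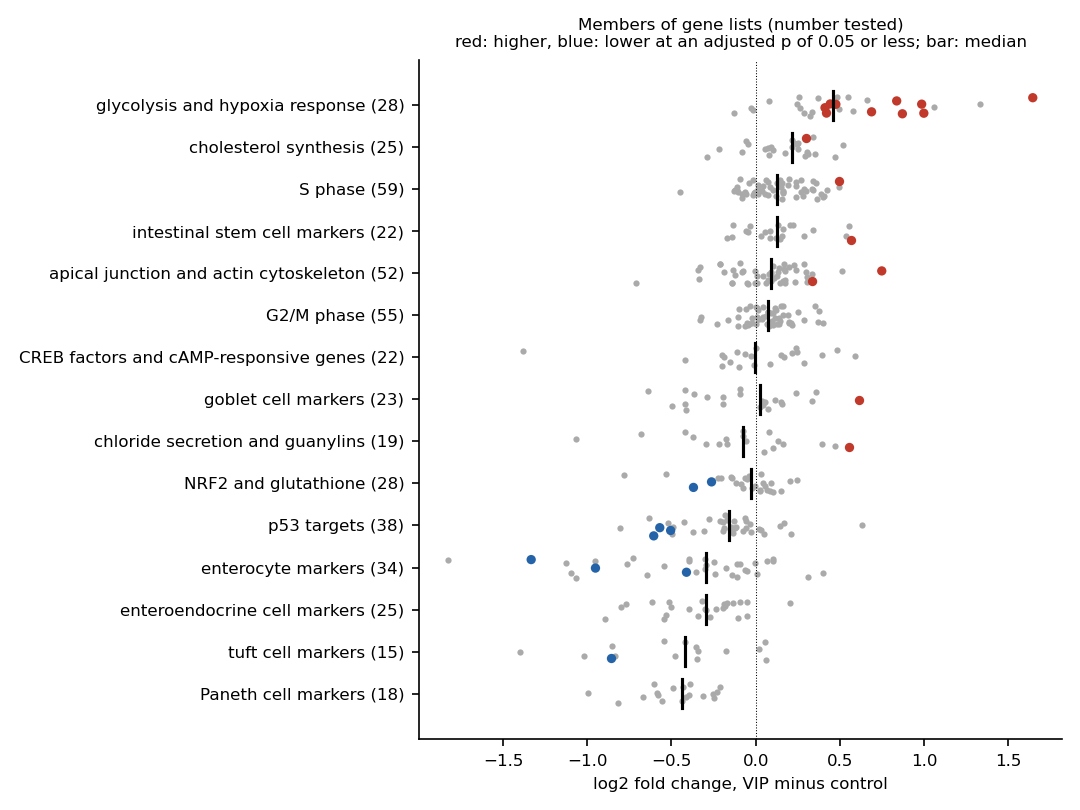
Log2 fold change of VIP over control (x axis) for the tested genes of selected lists (y axis, with the number tested), with the median of each list and the genes past the threshold marked. The glycolysis and hypoxia response list held 10 of the 74 called genes and had the highest median (0.46), while Paneth (−0.44), tuft (−0.42), enterocyte (−0.30) and enteroendocrine (−0.30) markers lay lowest.

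The genes through which VIP is known to act did not pass the test. Vipr1 (chr9:121642716-121672954) was at 12.5, 10.01, 7.44 and 11.3 CPM in control and 10.7, 6.02, 5.84 and 6.68 CPM in VIP-treated cells. It was lower with VIP in 4 of 4 mice, but the groups overlapped (log2 fold change −0.51, SE 0.28, adjusted p = 0.487). Vipr2 was at 0 in all control samples and reached 0.649 CPM in 1 VIP-treated sample, too low to be tested. None of 13 cyclic AMP signalling genes (median 0.003), of 22 CREB factors and cyclic AMP-responsive genes (median −0.004) or of 22 genes of the p38 and ERK cascades (median 0.03) passed. The polyamine enzyme Odc1 (0.59, adjusted p = 0.2) and the phosphatase Dusp1 (−0.42), both of them cyclic AMP-responsive, were among those. Of the p38 and ERK genes, 1 of 21 was called lower with the 8 samples alone (0.875% of all genes were), the p38 kinase gene Mapk13. No gene of the cyclic AMP signalling and CREB lists was called in that fit. Gnai2, an inhibitory G protein subunit, was at 0.16 (adjusted p = 0.411), and Ctnnd1, p120-catenin, at −0.19 (adjusted p = 0.687). No gene passed in the Wnt (24 tested, median 0.04), Notch (18, 0.04), NF-kB (23, −0.02), EGF family (14, 0.02), Myc and ribosome biogenesis (40, 0.02), endoplasmic reticulum (30, 0.007), interferon (12, −0.04), fetal-like (19, −0.01) and dissociation and handling (24, −0.13) lists. In the last list 16 genes lay below 0 (50.6% of all genes). At an unadjusted p under 0.05, 5 of its 24 genes were lower and 1 higher (5.73% and 6.67% of all genes). The 8 samples alone called 1 of 17 fetal-like genes (Sprr2a3) and 1 of 39 Myc and ribosome biogenesis genes (Eif4a1) higher, against 1.14% of all genes.

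The same treatment after 6 Gy of irradiation, in cells of the same mice, called 22 genes (0.221% of those tested): 13 rose (0.13%) and 9 fell (0.0902%). Of the 48 genes that rose in non-irradiated cells, 45 lay above 0 in irradiated cells (median log2 fold change 0.19), as did 49.4% of all genes. Of the 48, 6 passed there, namely Olfm4 (0.35, adjusted p = 0.0176), Cldn2 (0.55, adjusted p = 0.0032), Cbs (0.94, adjusted p = 0.0032), Aqp1 (0.50, adjusted p = 0.0191), Ceacam1 (0.44, adjusted p = 0.0426) and the peptidoglycan recognition protein Pglyrp1 (0.37, adjusted p = 0.00529). Of the 26 genes that fell, 21 lay below 0 (median −0.21), and Adh1 (−0.76, adjusted p = 0.00047), Ces2a (−0.96, adjusted p = 0.0356) and Fabp1 (−1.37, adjusted p = 0.00041) passed. None of the 28 glycolysis and hypoxia response genes passed in irradiated cells, and their median was 0.06. Eno1 (0.26), Pfkl (−0.12), Cdkn1a (0.03) and Bbc3 (−0.02) were smaller in size there than without irradiation. The difference between both responses, tested as an interaction in the same fit, was past the threshold for none of 9976 genes (634 at an unadjusted p under 0.05; DESeq2 called none and had 266 at an unadjusted p under 0.05). The adjusted p of that difference was 0.633 for Eno1, 0.511 for Pfkl, 0.687 for Slc16a3 and 0.543 for Cdkn1a.

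A separate experiment with VIP for 72 h, also in sorted non-irradiated Lgr5-EGFP+ cells but of 4 other mice, called 6 of 6778 genes (0.0885%), with 4 higher (0.059%) and 2 lower (0.0295%). Of the genes that rose at 48 h, 46 were tested there and 35 lay above 0 with none called (median 0.17). Over all genes tested at 72 h, 49.7% lay above 0. Of the genes that fell at 48 h, 20 were tested and 17 lay below 0 (median −0.26). Plgrkt was the one called in both experiments (−0.78, adjusted p = 0.0151 at 72 h). Its difference between the experiments was 0.06 (SE 0.16, adjusted p = 0.989). The 25 glycolysis and hypoxia response genes tested at 72 h had a median of −0.03, and none passed. In 1 model of both experiments the VIP response differed for 8 of 9671 genes (0.0827%), 5 of them higher at 72 h (0.0517%) and 3 lower (0.031%). Of these, Slc16a3 (−0.21 at 72 h, difference −1.89, SE 0.29, adjusted p = 0.00122), Pfkl (−0.12, difference −0.99, SE 0.19, adjusted p = 0.0142) and Bnip3 (−0.58, difference −1.68, SE 0.30, adjusted p = 0.00958) had the higher response at 48 h. Bnip3 had not passed at 48 h in the fit of all 16 samples, but it did with the 8 samples alone. Adh1 was at 0.40 at 72 h (difference 1.27, SE 0.24, adjusted p = 0.0122). Mice, the stated duration and the experiment itself, each with its own count table, differed together and cannot be told apart. Fewer genes could be tested at 72 h (6778 against 9976).

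**Figure D5:**
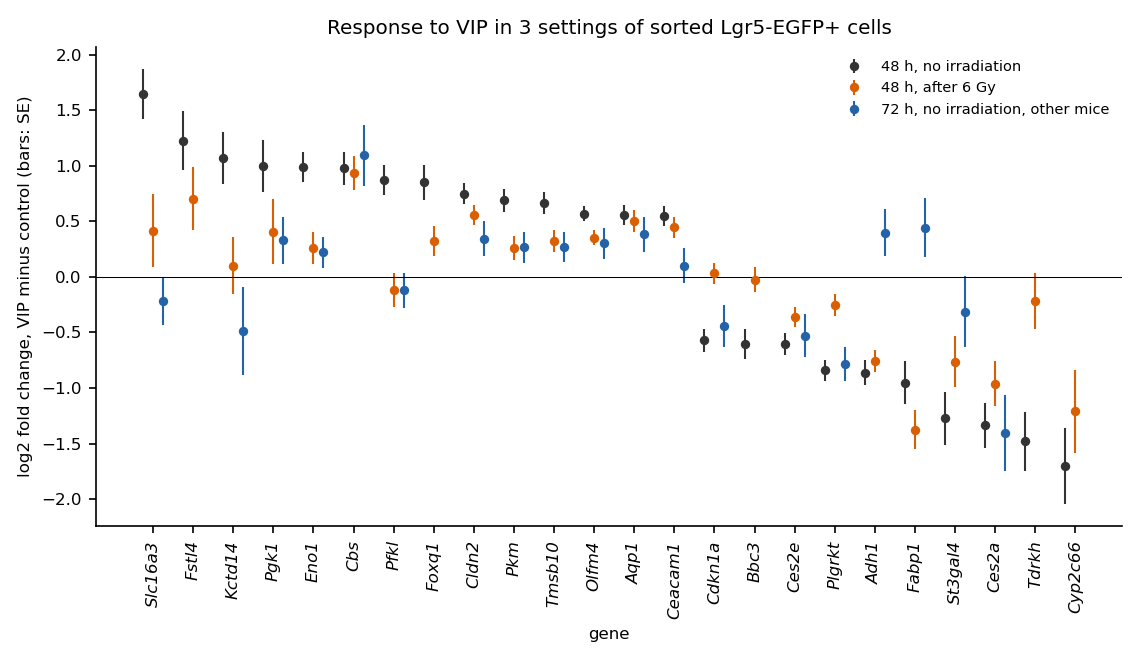
Log2 fold change of VIP over control (points, with bars of 1 SE) for selected genes in non-irradiated cells at 48 h, in irradiated cells and in the 72 h experiment. Olfm4, Cldn2 and Cbs lay above 0 in all 3 settings, Slc16a3 was at 1.65, 0.41 and −0.21, and Plgrkt was at −0.84, −0.25 and −0.78.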

How the data were processed

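Gene counts of UMIs were deposited by the authors as 1 table per experiment, with genes in rows and samples in columns. Per the labels and the study's methods, RNA of sorted cells was made into 3′ UMI libraries, sequenced on a NextSeq 500 and processed with the Drop-seq pipeline (version 1.0) against GRCm38 with GENCODE M25. The counts were raw, not normalised and not pooled, and 0 columns lacked a sample. The table of the irradiation experiment held 27547 genes and that of the 72 h experiment 20500. The whole-organoid table was not used here.

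Here, genes were filtered by filterByExpr, scaled by TMM and tested with edgeR 4.0.16 (R 4.3.3) by its quasi-likelihood test, in 1 fit of all 16 samples of the irradiation experiment with 4 groups and the mouse as a block. P-values were adjusted over all genes tested by the Benjamini-Hochberg method, with a threshold of 0.05. Values are CPM, with the UMIs of the tested genes times the TMM factor as library size. Differences within a mouse and the principal components (500 most variable genes) used log2 CPM with a prior count of 2. Log2 fold changes are those of edgeR. The difference to irradiated cells was an interaction in the same fit, and that to 72 h an interaction in 1 fit of both experiments, in which a gene listed in only 1 table was set to 0 in the other. The script was tested on simulated data.

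Same-numbered samples came from the same mouse by their labels. Deviations from the group means correlated at 0.0389 to 0.158 between samples of the same mouse (4 pairs) and at −0.0951 to 0.0325 between different mice. The samples of a mouse are cultures of 1 line. The main p-values rest on the residual spread of all 16 samples around the group and mouse terms, irradiated cultures included. Only the fit of the 8 samples alone rests on the spread of the VIP response over the 4 lines.

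Named genes were those the study names, the 10 largest rises and falls past the threshold with the same sign in 4 of 4 mice, up to 3 genes of smallest p per list, and genes past the threshold in a difference of responses. Others were named after their values were seen. A gene that the rule also names is not reported here. The samples, lists and rules were chosen with earlier results of these data known. Gene positions are from GENCODE M21 (98.6% of tested symbols matched) and promoters from RefSeq (GRCm38.p6). Alternatives were DESeq2 1.42.0, RLE factors, library size only, no or a stricter count filter (10 counts in every sample), no mouse block, no mitochondrial genes, leaving out each mouse, and the 8 samples alone. Intervals from depth were not computed. UMI counts set the precision of low genes, where 1 CPM is under 2 UMIs.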

Additional observations from a re-analysis of the deposited data

Results flagged for a closer look

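In 148 groups of 4 samples examined, 3 held a sample far from the other 3 by Dixon's criterion (2.03%, where chance gives about 1 in 20). Bbc3 was at 64.1 CPM in the control sample of mouse 3 and at 47.6 to 50.2 CPM in the other control samples. Cth was at 84.1 CPM in the control sample of mouse 1, with the others between 106 and 110 CPM (109.9 the highest). Trp53 was at 214 CPM in the VIP-treated sample of mouse 2 and at 186 to 187 CPM in the others.

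The VIP response differed between the 72 h and the 48 h experiment, by the interaction test over all genes, for 8 genes (quasi-likelihood test of edgeR, Benjamini-Hochberg adjusted). It was higher at 72 h for S100a6, a calcium-binding protein (log2 difference 1.42, SE 0.19, adjusted p = 0.000164; 0.26 at 48 h and 1.68 at 72 h), for Adh1 (1.27), and for the defensin genes Defa3 (1.69, SE 0.21, adjusted p = 4.32e-05), Defa38 (2.30, SE 0.37, adjusted p = 0.00169) and Defa29 (3.68, SE 0.61, adjusted p = 0.00299). It was lower at 72 h for Slc16a3 (−1.89), Bnip3 (−1.68) and Pfkl (−0.99). The defensin genes are near-identical copies whose reads can be shared, and Defa29 was too low to be tested in the 72 h experiment alone. The number of such genes was 3, 9, 18 and 4 without mouse 1, 2, 3 or 4 of each experiment.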

How the results depend on the processing

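All 74 called genes kept their direction under the 12 alternatives, and 16 passed in each one that gave them an adjusted p. Of the values of called named genes under the alternatives, 453 stayed past the threshold and 118 did not. Among named genes that were not called, 203 values stayed so, 31 passed, and 2 changed sign: Muc2 (log2 fold change −0.38 to 0.065 on leaving out 1 mouse, positive without mouse 4) and Neurod1 (−0.28 to 0.23, positive without mouse 1). The count of 74 became 182 (85 higher, 97 lower) with no filter on low counts, 184 (104 higher, 80 lower) with the 8 non-irradiated samples only, 34 (21 higher, 13 lower) without the mouse block that pairs the samples, and 32 to 42 on leaving out 1 mouse. DESeq2 also called 74 genes, of which 48 were among those of edgeR. It gave no adjusted p to 24 of edgeR's 74 and did not call 2 of the other 50. The difference to irradiated cells went from 0 genes to 34 with no filter and to between 0 and 1 without 1 mouse. The difference to 72 h went from 8 genes to 5 with DESeq2, 31 with no filter, 2 with at least 10 counts in every sample, 2 without the mouse block, and 3 to 18 without 1 mouse. Glycolysis and hypoxia response genes went from 10 to 4 without the block and 5 to 9 without 1 mouse. Enterocyte markers went from 3 to 9 with no filter, 6 with the 8 samples only, and 1 to 3 without 1 mouse. The p53 targets went from 3 to 5 with no filter, 1 without the block, and 1 to 2 without 1 mouse. Leaving out the block changed the sign of no named gene. With no filter, genes of few UMIs enter the test. Genes under the filter were not tested, and smaller changes of low genes were not detectable at this depth.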

Other observations

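Of the 74 called genes, 48 belonged to none of the lists (31 rose and 17 fell). The genes described here were chosen after their values were seen. Mpc1, a subunit of the carrier that brings pyruvate into mitochondria, was at 67.7, 89.5, 88.7 and 93.8 CPM in control and 107, 129, 122 and 109.9 CPM in VIP-treated cells (log2 fold change 0.46, SE 0.11, adjusted p = 0.032, edgeR's quasi-likelihood test). Higd1a, a hypoxia-inducible protein of the respiratory chain, went from 33.2, 40.7, 35.5 and 39.9 CPM to 65.0, 55.7, 63.0 and 54.1 CPM (0.67, SE 0.14, adjusted p = 0.0172). Oxct1, which activates ketone bodies for use as fuel, rose by 0.47 (SE 0.08, adjusted p = 0.00448) and the protease Lonp1 by 0.46 (SE 0.11, adjusted p = 0.0386). In irradiated cells these 4 genes had log2 fold changes of 0.18, 0.006, 0.22 and 0.13, and none passed.

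The enzymes of the 2 steps from homocysteine to cysteine moved in opposite directions: Cbs rose, as described above, and Cth, the second enzyme, fell from 84.1, 109, 109.9 and 106 CPM to 64.2, 76.8, 80.5 and 79.0 CPM (−0.44, SE 0.10, adjusted p = 0.0394). The groups of neither gene overlapped. Hdac1, a histone deacetylase, rose by 0.59 (SE 0.10, adjusted p = 0.00273) and was at 0.10 in irradiated cells. The creatine kinase Ckb fell by 0.47 on the log2 scale (SE 0.08, adjusted p = 0.00273), as did Gas5, a host gene of small nucleolar RNAs (−0.34, SE 0.07, adjusted p = 0.0108), and Mgst2, a microsomal glutathione transferase (−0.38, SE 0.08, adjusted p = 0.0154).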
